A study of Mus musculus with 4 samples.

Results

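The genes of glycolysis and of pyruvate handling were followed from glucose uptake to the fate of pyruvate in 2 kinds of mouse pluripotent cells. The genes were picked by name as enzymes, transporters and regulators of these steps. They and the related lists below were chosen with earlier results of these data known. Their counts beside the shares of all genes are therefore descriptive. A gene was taken when its symbol stood in the annotation of the array. Of 37 such genes, 33 were measured, by 47 probes, among 16593 genes and 25697 probes in all. The probe with the highest mean log2 intensity over the 4 arrays stood for each gene. Gpi1, Pfkfb1, Eno1 and Ldhb were not analysed here.

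The EpiSC group consisted of 2 samples of mouse epiblast stem cells, pluripotent cells of the postimplantation epiblast. They were kept in DF12 medium with 20% serum replacement (KSR) and 10 ng/ml of bFGF. The parnate/mAMFGi group consisted of 2 samples of cells converted from epiblast stem cells and called converted mouse ESCs in the labels. Parnate (tranylcypromine) is an inhibitor of the histone demethylase LSD1, and the labels do not spell out mAMFGi. The stated medium of the converted group was DMEM with 10% FBS and 1000 units/ml of LIF, and it names neither parnate nor another inhibitor. Both groups grew on irradiated mouse embryonic fibroblasts (MEF feeders), and both media held beta-mercaptoethanol, L-glutamine and nonessential amino acids. The labels state no genotype, strain, line or passage, and no oxygen level. Medium and group cannot be told apart, nor can growth state, and the glucose content of the media is not stated. The labels call the 2 samples of a group biological replicates without saying whether they came from separate cultures or lines. The p-values thus rest only on the spread between these samples, for each probe moderated by the spread shared across all probes.

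Glycolysis splits glucose into pyruvate in the cytosol and yields ATP without oxygen. Pyruvate is then either reduced to lactate and exported or carried into mitochondria, where the pyruvate dehydrogenase complex turns it into acetyl-CoA. Kinases of the PDK family switch that complex off by phosphorylation. Epiblast stem cells are known for a strongly glycolytic metabolism, whereas naive embryonic stem cells use both glycolysis and respiration.

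The processed intensities had medians between 50 and 52 on the 4 arrays and ran from 25.5 to 42722.4, so a background level remained in every value and folds of dim probes are understated. No detection call could be used, and a gene is called dim here when its mean was under 100 in both groups. Of 12 cell state markers, 8 rose, 2 fell and 2, Pou5f1 among them, did not pass an adjusted p of 0.05 in limma with Benjamini-Hochberg adjustment over all probes. Over all genes, 20.2% rose and 21.2% fell. Dppa5a and Zfp42, markers of embryonic stem cells, stood at 31737.3 and 33315.8 and at 2529.1 and 2610.2 in the parnate/mAMFGi arrays, against at most 86.7 and 66.8 in the EpiSC arrays. Fgf5, a marker of the postimplantation epiblast, read 289.5 and 210.3 in EpiSCs and 144.1 and 143.6 in parnate/mAMFGi cells. Otx2, also a transcription factor gene of the postimplantation epiblast, went the other way and rose from 3140.5 and 3169.1 to 4668.9 and 4812.1. Of 15 fibroblast markers, 11 rose and 2 fell, against the same 20.2% and 21.2% of all genes. Lox went from 65.2 and 53.7 to 1149.7 and 1076.7 and Col6a1 from 201.8 and 171.4 to 1482.6 and 1447.1. The 2 that fell were Thy1, from 599.1 and 500.4 to 293.5 and 240.7, and Vim, from 2640.2 and 2492.6 to 2131.7 and 1833.0. The summed intensity of these 15 genes was 5811.7 and 5095.6 in EpiSCs and 9383.7 and 8726.5 in parnate/mAMFGi cells. Fap and Postn, also fibroblast markers, read at most 43.9 on every array, under the array medians. The part of feeder RNA in the results was not tested. In bulk RNA, fewer cells of a type and less RNA per cell cannot be told apart.

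More genes of the pathway fell than rose in parnate/mAMFGi cells, among them a glucose transporter, both measured aldolases and 2 of 3 phosphofructokinase genes. Of the 33 genes, 18 fell, 6 rose and 9 did not pass in the same limma test. Across all genes, 21.2% fell, 20.2% rose and so 41.5% passed. At least 2-fold falls numbered 8 (Aldoc, Pgm1, Eno2, Slc2a3, Pfkm, Pfkl, Tpi1 and Aldoa), against 6.32% of all genes, and Pfkp alone rose by at least 2-fold, against 5.11% of all genes. The median log2 fold change, parnate/mAMFGi minus EpiSC, was −0.35 over the 33 genes and 0.02 over all genes. Of the 12 genes with a mean intensity over 1000, 10 fell, 1 rose and 1 did not pass, whereas 41.5% of all genes that bright fell and 28.3% rose. Both parnate/mAMFGi arrays lay below both EpiSC arrays for 18 of the 33 genes and above for 11, against 30.7% and 35.5% of all genes, and 4 overlapped. Without Pfkl, Pfkm and Pfkp, 16 of 30 fell and 5 rose. Of the 10 dim genes, 2 rose (Pgam2 and Slc16a3), 2 fell (Pgk1 and Pdk2) and 6 did not pass.

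**Figure D1:**
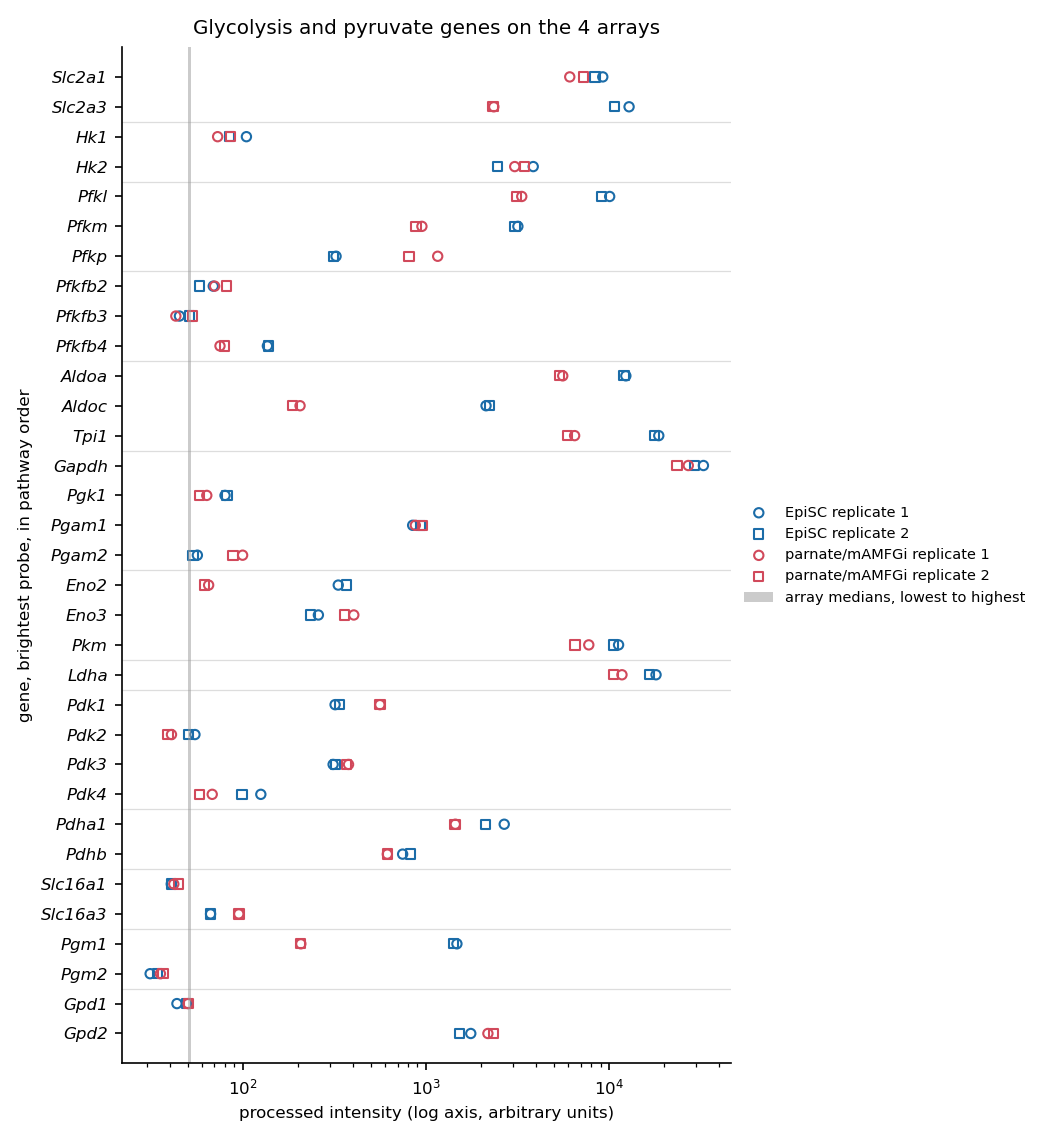
Processed intensity of the brightest probe of each gene on each array (log axis, arbitrary units), in pathway order with pale lines between steps. Blue symbols are EpiSC and red symbols parnate/mAMFGi arrays, circles replicate 1 and squares replicate 2, and the grey band spans the array medians of 50 to 52. Red symbols lie left of blue for Slc2a3, Pfkl, Pfkm, Aldoa, Aldoc, Tpi1, Eno2 and Pgm1 and right of blue for Pfkp.

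The upstream sequences of 5 genes are shown because these genes carry the contrasts described below. Aldoc and Pgm1 had the largest falls, Pfkl and Pfkp encode subunits of the same enzyme and moved in opposite directions, and Ldha makes lactate. Each line gives the 250 bases before a RefSeq gene start in build GRCm38.p6, 5′ to 3′ on the strand of the gene. Aldoc and Ldha each have another start in the table, which is not shown. Capitals mark ACGTG or GCGTG on either strand, the core letters bound by hypoxia-inducible factors.
Aldoc promoter, chr11:78322823-78323072, plus strand: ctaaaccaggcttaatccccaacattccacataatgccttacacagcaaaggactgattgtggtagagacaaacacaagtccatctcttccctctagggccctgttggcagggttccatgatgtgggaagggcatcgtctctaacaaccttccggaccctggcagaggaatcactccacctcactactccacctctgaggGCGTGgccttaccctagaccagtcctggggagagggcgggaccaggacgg
Pgm1 promoter, chr4:99929201-99929450, plus strand: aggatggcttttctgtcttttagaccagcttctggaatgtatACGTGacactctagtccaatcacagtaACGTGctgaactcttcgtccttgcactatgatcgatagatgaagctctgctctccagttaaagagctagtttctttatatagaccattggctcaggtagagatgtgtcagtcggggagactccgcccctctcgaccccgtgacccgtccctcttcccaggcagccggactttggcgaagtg
Pfkl promoter, chr10:78009808-78010057, minus strand: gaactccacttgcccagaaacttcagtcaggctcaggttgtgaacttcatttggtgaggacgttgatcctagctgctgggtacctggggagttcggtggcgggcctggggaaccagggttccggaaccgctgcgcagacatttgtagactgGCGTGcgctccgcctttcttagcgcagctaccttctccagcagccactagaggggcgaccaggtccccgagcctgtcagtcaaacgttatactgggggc
Pfkp promoter, chr13:6648772-6649021, minus strand: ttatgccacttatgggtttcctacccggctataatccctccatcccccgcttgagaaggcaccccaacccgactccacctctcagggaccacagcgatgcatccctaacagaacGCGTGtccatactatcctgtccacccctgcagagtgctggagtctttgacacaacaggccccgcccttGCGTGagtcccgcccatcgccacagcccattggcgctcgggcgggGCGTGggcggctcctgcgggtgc
Ldha promoter, chr7:46845554-46845803, plus strand: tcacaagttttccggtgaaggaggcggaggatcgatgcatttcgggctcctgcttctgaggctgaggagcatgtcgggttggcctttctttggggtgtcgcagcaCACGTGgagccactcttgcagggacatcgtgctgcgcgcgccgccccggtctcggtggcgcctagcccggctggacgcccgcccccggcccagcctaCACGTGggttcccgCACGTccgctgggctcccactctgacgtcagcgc
The Ldha sequence held 3 such places, of which 2 read CACGTG, the letters of an E-box, so that ACGTG matched there on both strands. Pfkp held 3 places, Pgm1 held 2, and Aldoc and Pfkl held 1 each. At least 1 of these motifs lay before some start of 15 of 17 genes that fell, 5 of 6 that rose and 8 of 8 that did not pass and had a sequence. The share over all 27025 genes of the promoter table was 41.5%. GGGCGG, which holds neither motif, lay before some start of 10 of 17, 4 of 6 and 6 of 8, against 35.4%. GGGCGG thus also stood above its share of all genes, and the sets of genes were not matched for base composition. The 31 pathway genes had 46 starts and all genes 32851, and more starts per gene raise such a share. Why the pathway genes stood above all genes was not tested. Slc2a3 and Gpd1 had no entry. Eno2 and Tpi1, both at least 2-fold lower, had no match in this window. These are matches of letters, and binding was not measured.

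Both glucose transporter genes fell, by very different amounts. Slc2a3 (GLUT3), a high-affinity transporter, read 12877 and 10762 in EpiSCs and 2350 and 2324 in parnate/mAMFGi cells. Both EpiSC arrays stood far above both parnate/mAMFGi arrays, a 5.04-fold fall with a log2 fold change of −2.33 (SE 0.10, limma adjusted p = 2.44e-10), the 104th largest fall among 16593 genes. Slc2a1 (GLUT1), the widespread basal transporter, read 9249.6 and 8377.7 in EpiSCs and 6107.2 and 7248.9 in parnate/mAMFGi cells. The groups did not overlap, as for 66.1% of all genes, but the gap was narrow. Its log2 fold change was −0.40 (SE 0.11, limma adjusted p = 0.00677). Slc2a1 no longer passed without parnate/mAMFGi replicate 1 (adjusted p = 0.157), with cyclic loess (0.0573) and with normexp at offset 16 (0.0559).

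Hexokinase genes, which trap glucose as glucose 6-phosphate, did not pass. Hk2, the inducible isozyme, read 3857.5 and 2462.8 in EpiSCs and 3057.1 and 3465.6 in parnate/mAMFGi cells. The groups overlapped, with the highest and the lowest value both in EpiSCs, and the log2 fold change of 0.08 had a 95% interval from −0.26 to 0.42. Without EpiSC replicate 1, the difference was 0.40 and passed (adjusted p = 0.0117). Hk1, the housekeeping isozyme, was dim on its only probe at 104.7 and 84.9 against 72.9 and 85.5. Its log2 fold change of −0.26 did not pass (adjusted p = 0.107) but did without EpiSC replicate 2 (−0.41, adjusted p = 0.0136).

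The phosphofructokinase genes, whose products catalyse the committed step of glycolysis as mixed tetramers, split. Pfkl, the liver-type subunit, read 10086.7 and 9133.4 in EpiSCs and 3339.5 and 3128.9 in parnate/mAMFGi cells. Pfkm, the muscle-type subunit, read 3180.4 and 3067.3 against 951.4 and 885.0. Pfkp, the platelet-type subunit, read 323.2 and 313.4 against 1160.4 and 807.9. The groups did not overlap for any of the 3 genes, nor for 66.1% of all genes. Pfkl and Pfkm were lower while Pfkp was higher in both parnate/mAMFGi arrays. The log2 fold changes were −1.57 (SE 0.10) for Pfkl, −1.77 (SE 0.09) for Pfkm and 1.61 (SE 0.14) for Pfkp, with limma adjusted p-values of 7.51e-09, 1.53e-09 and 1.92e-07. Both other probes of Pfkm fell as well, by 1.36 and 0.89 on the log2 scale. The middle probe of Pfkp rose by 1.41. A dim probe of Pfkl (75.6 and 64.0 against 60.7 and 54.7) and the dimmest of Pfkp (37.5 and 40.3 against 37.8 and 37.6) did not pass.

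The bifunctional PFKFB enzymes set the level of fructose 2,6-bisphosphate, the main activator of phosphofructokinase. Pfkfb4 read 136.3 and 138.8 in EpiSCs and 75.1 and 79.4 in parnate/mAMFGi cells, a log2 fold change of −0.83 (SE 0.09, limma adjusted p = 3.57e-06). Its groups did not overlap, but the parnate/mAMFGi values lay close to the array medians, and a second probe at 37.5 to 42.9 did not pass. Pfkfb2 and Pfkfb3 were dim, with log2 fold changes of 0.25 and −0.01 that did not pass. Pfkfb2 passed without EpiSC replicate 1 (0.38, adjusted p = 0.0201).

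**Figure D2:**
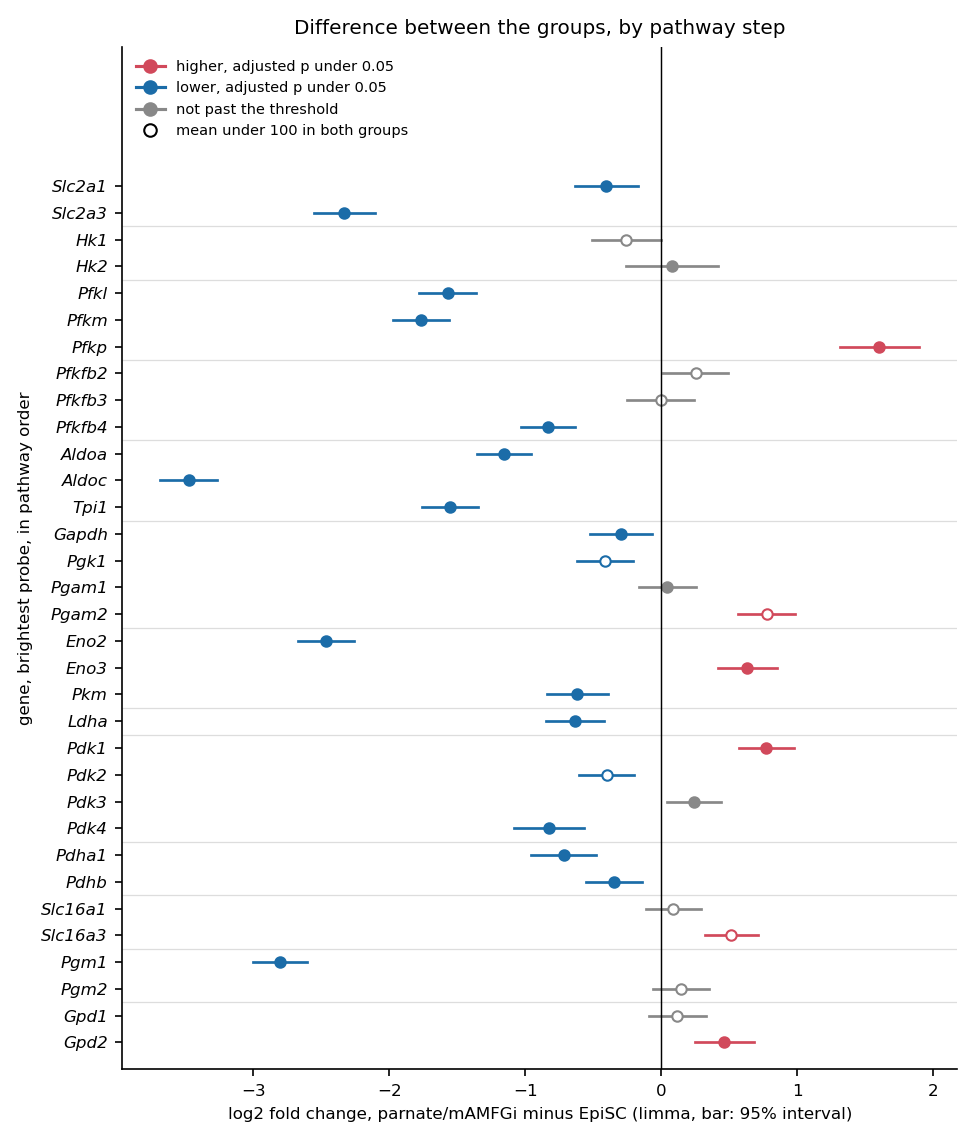
Log2 fold change, parnate/mAMFGi minus EpiSC, of each gene by its brightest probe in pathway order, with 95% intervals from limma. Blue genes fell and red genes rose at an adjusted p under 0.05, grey genes did not pass, and open circles are genes with a mean under 100 in both groups. The intervals of all 18 blue genes lie left of 0, with Aldoc lowest at −3.48, and Pfkp lies highest at 1.61. The intervals are not adjusted for the number of probes, and those of the grey genes Hk1, Pfkfb2 and Pdk3 also exclude 0.

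Aldolase cleaves fructose 1,6-bisphosphate into 2 triose phosphates, which triose phosphate isomerase interconverts. All 3 genes of these steps fell by at least 2-fold. Aldoc, the brain-type aldolase, read 2131.2 and 2228.1 in EpiSCs and 205.5 and 186.3 in parnate/mAMFGi cells. This was the largest fall of the pathway, 11.1-fold with a log2 fold change of −3.48 (SE 0.10, limma adjusted p = 1.58e-12), and the 20th largest of all genes. Aldoa, the ubiquitous aldolase, read 12364 and 12064.7 against 5590.5 and 5353.6, a log2 fold change of −1.16 (SE 0.09, limma adjusted p = 1.09e-07). Tpi1 read 18707.2 and 17715.3 against 6492.2 and 5936.0 on its brightest probe (log2 fold change −1.55, SE 0.10, limma adjusted p = 7.45e-09). In each of the 3 genes, the EpiSC arrays lay above the parnate/mAMFGi arrays by far more than the replicates differed. A second bright Tpi1 probe fell by 1.75 on the log2 scale, and another, at 119.2 to 156.0 on all arrays, did not pass (0.19, adjusted p = 0.201).

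Of 4 genes of the steps from glyceraldehyde 3-phosphate to 2-phosphoglycerate, Gapdh and Pgk1 fell, Pgam2 rose and Pgam1 did not pass. Gapdh, the dehydrogenase that is often used as a reference gene, read 32798.4 and 29269.2 in EpiSCs and 27114.0 and 23482.1 in parnate/mAMFGi cells. The groups did not overlap, but the gap between them was smaller than that between replicates. The log2 fold change of −0.30 (SE 0.10) passed narrowly (limma adjusted p = 0.0366). Gapdh no longer passed when EpiSC replicate 1 was left out (adjusted p = 0.188), when parnate/mAMFGi replicate 2 was (0.366) and under 5 of the other alternatives, with an adjusted p of 0.461 after cyclic loess. The second Gapdh probe fell by 0.38 on the log2 scale (limma adjusted p = 0.00702). Gapdh has many processed pseudogenes in the mouse, whose transcripts a probe may not separate.

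Pgk1, the phosphoglycerate kinase, was dim on its only probe at 80.0 and 82.0 in EpiSCs and 63.6 and 58.2 in parnate/mAMFGi cells. Its log2 fold change of −0.41 passed (limma adjusted p = 0.00259) but not without parnate/mAMFGi replicate 2 (adjusted p = 0.0643). Pgam1, the widespread phosphoglycerate mutase, read 847.1 and 931.8 against 876.0 and 958.0. The groups overlapped, and the difference of 0.04 had a 95% interval from −0.17 to 0.26. Pgam2, the muscle mutase, was dim and rose from 56.5 and 53.4, close to the array medians, to 99.8 and 88.4. Its log2 fold change was 0.77 (SE 0.10, limma adjusted p = 1.37e-05).

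The enolase genes split by isozyme. Eno2, the neuronal enolase, read 332.3 and 368.9 in EpiSCs and 65.1 and 61.7 in parnate/mAMFGi cells. Its log2 fold change was −2.47 (SE 0.10, limma adjusted p = 6.8e-11), and the low values were near the array medians, so the fall is understated. Eno3, the muscle enolase, read 258.8 and 234.0 against 404.0 and 360.0, a log2 fold change of 0.63 (SE 0.10, limma adjusted p = 1.17e-04). Neither gene had overlapping groups, and 66.1% of all genes had none either. The ubiquitous enolase Eno1 had no probe under its symbol, and a probe of Eno1b, a close copy for which RefSeq lists Eno1 as a synonym, read 870.5 and 811.5 against 987.7 and 924.2 (log2 fold change 0.18, limma adjusted p = 0.16).

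Pkm, which makes pyruvate, read 11283.1 and 10542.7 in EpiSCs and 7758.3 and 6515.6 in parnate/mAMFGi cells. Ldha, the lactate dehydrogenase subunit that favours lactate formation, read 18073.6 and 16593.3 against 11774.5 and 10566.8. Both genes were lower in both parnate/mAMFGi arrays, with no overlap, which held in that direction for 30.7% of all genes. Their log2 fold changes were −0.62 (SE 0.11) and −0.63 (SE 0.10), with limma adjusted p-values of 2.12e-04 and 9.66e-05. The Pkm probe was not assigned to the M1 or the M2 splice form. Of the monocarboxylate transporters that export lactate, Slc16a1 (MCT1) lay below the array medians at 40.7 to 44.7 on all arrays and Slc16a3 (MCT4) rose at low intensity from 66.7 and 66.4 to 95.1 and 95.2. The log2 fold change of Slc16a3 was 0.52 (SE 0.09, limma adjusted p = 3.13e-04), and its other 2 probes, between 37.2 and 53.8, did not pass.

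Both measured subunit genes of pyruvate dehydrogenase E1, the first enzyme of the complex, fell. Pdha1 read 2678.8 and 2109.3 in EpiSCs and 1448.3 and 1440.3 in parnate/mAMFGi cells, a log2 fold change of −0.72 (SE 0.11, limma adjusted p = 9.96e-05). Pdhb read 746.7 and 825.2 against 615.9 and 619.1. Its log2 fold change of −0.35 (SE 0.10) passed with a limma adjusted p of 0.00918, and its second probe fell by 0.44. The groups did not overlap for either gene, nor for 66.1% of all genes. Pdhb no longer passed when EpiSC replicate 2 was left out (adjusted p = 0.056), nor with parnate/mAMFGi replicate 1 (0.0835) or 2 (0.0777) left out.

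The PDK genes, whose products restrain the complex, went both ways. Pdk1 read 319.3 and 337.2 in EpiSCs and 560.9 and 561.1 in parnate/mAMFGi cells, a log2 fold change of 0.77 (SE 0.09, limma adjusted p = 7.42e-06). Pdk4 read 125.5 and 99.1 against 68.1 and 58.1, a log2 fold change of −0.83 (SE 0.12, limma adjusted p = 5.01e-05). Pdk1 was higher and Pdk4 lower in both parnate/mAMFGi arrays. Pdk3 read 311.5 and 320.2 against 378.1 and 369.7, with no overlap, and missed the threshold (0.24, limma adjusted p = 0.051). It passed with quantile normalization (adjusted p = 0.0428) and 3 other alternatives. Pdk2 fell near the array medians, from 54.8 and 50.7 to 40.8 and 39.0 (log2 fold change −0.40, limma adjusted p = 0.00312, and 0.0587 without parnate/mAMFGi replicate 2).

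Among the side branches, Pgm1 stood out. The product of Pgm1 interconverts glucose 1-phosphate and glucose 6-phosphate and so joins glycogen to glycolysis. The probe belongs to Entrez gene 72157, for which RefSeq lists Pgm2 as a synonym. Pgm1 read 1477.6 and 1413.7 in EpiSCs and 207.5 and 207.2 in parnate/mAMFGi cells. The replicates lay close together and the groups far apart, a 6.97-fold fall with a log2 fold change of −2.80 (SE 0.09, limma adjusted p = 1.02e-11), the 53rd largest of all genes. Pgm2 lay below the array medians on all arrays at 31.2 to 36.7. Gpd2, the mitochondrial glycerol phosphate dehydrogenase of the shuttle that passes cytosolic electrons to the respiratory chain, rose from 1759.1 and 1531.1 to 2181.8 and 2345.5. Its log2 fold change was 0.46 (SE 0.10, limma adjusted p = 0.00174, and 0.0517 without parnate/mAMFGi replicate 2), and its second probe rose by 0.55. Gpd1, the cytosolic partner, was dim at 43.7 to 50.4 and did not pass.

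Of the 33 genes, 10 had more than 1 probe, and no 2 probes of a gene passed in opposite directions. For Pfkm, Gapdh, Pdhb and Gpd2, every probe passed in the same direction. For Pfkl, Pfkp, Pfkfb4, Tpi1 and Slc16a3, at least 1 dimmer probe did not pass, and for Pfkfb2 neither did.

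**Figure D3:**
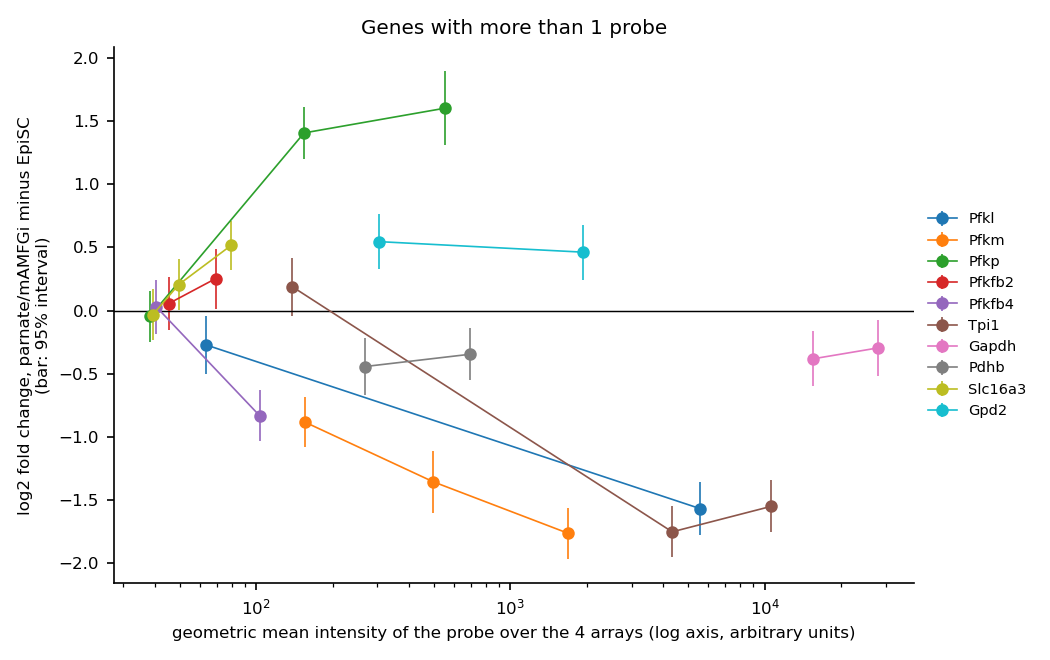
Log2 fold change with its 95% interval (vertical axis) against the geometric mean intensity over the 4 arrays (log axis, arbitrary units) for each probe of the 10 genes with more than 1 probe, with probes of a gene joined by a line. The brightest probes lie farthest from 0 for Pfkm, Pfkp and Pfkl, and the probes near an intensity of 40 lie near 0. For Tpi1, Gapdh, Pdhb and Gpd2, a dimmer probe lies farther from 0 than the brightest.

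Related genes were also compared within each array, so that scaling between arrays cancels. Of 21 pairs of measured isozymes or subunits, 5 had calls in opposite directions: Pfkl and Pfkp, Pfkm and Pfkp, Eno2 and Eno3, Pdk1 and Pdk2, and Pdk1 and Pdk4. Pfkp and Pdk1 each stood in 2 of these 5 pairs. Of all genes, 20.2% rose and 21.2% fell, and the share of opposite calls in other pairs of genes was not computed. The log2 difference of Pfkl to Pfkp changed by −3.18 between the groups, a 9.03-fold shift, with an SD of 0.07 between the EpiSC and 0.30 between the parnate/mAMFGi arrays (n = 2 each). Those of Pfkm to Pfkp and of Eno2 to Eno3 changed by −3.37 and −3.10, the latter understated because Eno2 fell close to the array medians. The differences of Aldoa to Aldoc and of Slc2a1 to Slc2a3, in which both genes fell, changed by 2.32 and 1.93. Pdk1 rose while Pdk4 and Pdk2 fell, but the parnate/mAMFGi values of Pdk4 and all values of Pdk2 lay near the array medians, so no size is given for these pairs. Pfkl and Pfkm moved almost in step, with a change of 0.20. With 2 arrays against 2, the exact two-sided permutation test cannot go below p = 0.333, a value that 20 of 21 pairs reached, so these shifts are given by size and spread. A shift within an array shows unequal change and does not say which subunit was more abundant.

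**Figure D4:**
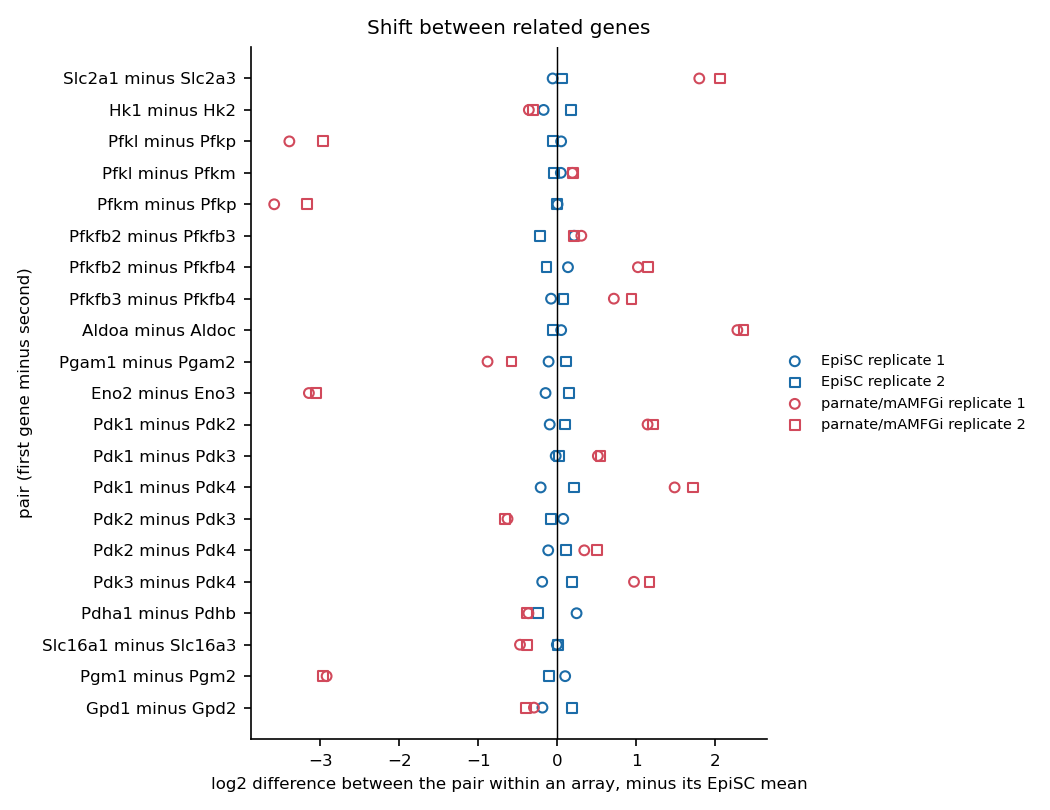
Log2 difference between 2 related genes within an array, minus the EpiSC mean of that difference, for 21 pairs. Circles are replicate 1 and squares replicate 2, blue EpiSC and red parnate/mAMFGi. The red symbols lie near −3 for Pfkl minus Pfkp, Pfkm minus Pfkp, Eno2 minus Eno3 and Pgm1 minus Pgm2. Those of Pfkl minus Pfkm lie near 0. Pairs with a dim gene (such as Pdk2 or Pgm2) have no exact size.

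Among the 33 genes, 6 lie on mouse chromosome 6 (Slc2a3, Hk2, Tpi1, Gapdh, Eno2 and Pdk4). Eno2 and Tpi1 are close neighbours there, with 2 coding genes between them in the RefSeq table of GRCm38.p6. This stretch was looked at after the values of Eno2 and Tpi1 were seen. Of 13 other measured coding genes between them or among the 6 on either side, 6 rose, 3 fell and 4 did not pass, against 20.2% higher and 21.2% lower of all genes. None of the 13 fell by at least 2-fold, and their median log2 fold change was 0.19.

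Genes outside the central pathway were taken from lists of related steps. Of 16 measured genes among other glycolytic enzymes and sugar transporters, 6 rose, 2 fell and 8 did not pass, against 20.2% higher and 21.2% lower of all genes, and 10 of the 16 were dim. Ldhc, the germ cell lactate dehydrogenase, rose from 40.9 and 47.1 to 193.6 and 209.2, a log2 fold change of 2.20. Slc5a1, a sodium-glucose cotransporter, rose from 41.1 and 40.4 to 127.0 and 153.7 (1.78). Both started below the array medians, so these rises are understated. Of 18 further genes of the pyruvate dehydrogenase complex and pyruvate use, 2 rose, 3 fell and 13 did not pass. Both shares were below the 20.2% and 21.2% of all genes, but 10 of the 18 genes were dim. Pdp2, a phosphatase that reactivates pyruvate dehydrogenase, fell from 2395.0 and 2356.4 to 1117.0 and 1218.6, and Me1, which makes pyruvate and NADPH from malate, rose from 357.5 and 349.5 to 701.8 and 751.1.

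Several glycogen genes fell with Pgm1. Of 16 genes of the glycogen and hexosamine branches, 6 fell, each by at least 2-fold, 2 rose and 8 did not pass. Of all genes, 21.2% fell, 6.32% by at least 2-fold, and 20.2% rose. Ppp1r3c, which targets a phosphatase to glycogen, read 806.4 and 774.4 in EpiSCs and 64.4 and 70.6 in parnate/mAMFGi cells, a log2 fold change of −3.55. The glycogen phosphorylase genes Pygb and Pygl had log2 fold changes of −1.91 and −1.33, and Gyg, the primer of glycogen synthesis, −1.12. In the hexosamine branch, Gfpt2 and Uap1 had log2 fold changes of −1.21 and −1.11, and Gnpda1, which returns glucosamine 6-phosphate to glycolysis, 1.03. Of 8 pentose phosphate genes, 3 rose and 3 fell, again against 20.2% and 21.2% of all genes, with H6pd at 1.20 and Prps1 at −0.98. Of 7 gluconeogenesis genes, 2 rose and 2 fell, and 6 of the 7 were dim. G6pc3, the widespread glucose 6-phosphatase, fell from 225.8 and 245.7 to 89.0 and 83.8, and Fbp2, the muscle fructose bisphosphatase, rose from 40.7 and 43.3 to 104.5 and 89.8.

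Genes of the hypoxia response outside glycolysis had the highest share of falls among the 7 other metabolic and regulatory lists. Of 21 measured, 14 fell, 4 rose and 3 did not pass, with a median log2 fold change of −0.73, and 8 fell by at least 2-fold, against 21.2% and 6.32% of all genes and a median of 0.02. Egln3, a prolyl hydroxylase that marks HIF for degradation, read 516.5 and 466.3 in EpiSCs and 122.5 and 113.2 in parnate/mAMFGi cells. The growth factor gene Vegfa read 488.3 and 487.4 against 133.2 and 138.7, and Ndrg1, a stress-response gene, 743.7 and 628.3 against 200.6 and 199.2. In these 3 genes the groups lay far apart, with log2 fold changes of −2.06, −1.84 and −1.77. Hif1a rose at low intensity from 89.0 and 73.7 to 124.0 and 136.8, while Arnt, its partner subunit, fell from 573.7 and 521.5 to 187.3 and 222.5. Kdm3a, a demethylase gene induced by hypoxia, rose by 0.94 on the log2 scale. The remaining rises were Epas1, from 34.0 and 35.1 to 77.1 and 73.6, and Egln2, from 76.9 and 84.1 to 135.7 and 134.6. Oxygen, protein and enzyme activity were not measured.

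Of 12 regulators of growth and sugar metabolism, 4 rose, 3 fell and 5 did not pass, against 20.2% higher and 21.2% lower of all genes. Txnip, which is induced by glucose and restrains its uptake, read 14492.6 and 13989.4 in EpiSCs and 1175.1 and 1151.2 in parnate/mAMFGi cells, a log2 fold change of −3.61 (SE 0.09, limma adjusted p = 7.46e-13). Mlxipl, a glucose-responsive transcription factor that activates Txnip, fell from 108.3 and 141.5 to 48.1 and 49.3, into the range of the array medians. Myc and Mycn read at most 57.0 on all arrays and did not pass, and Mycl had a log2 fold change of −0.85. Esrrb, a nuclear receptor gene of naive pluripotency, rose from 85.7 and 88.0 to 3069.7 and 2745.1.

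**Figure D5:**
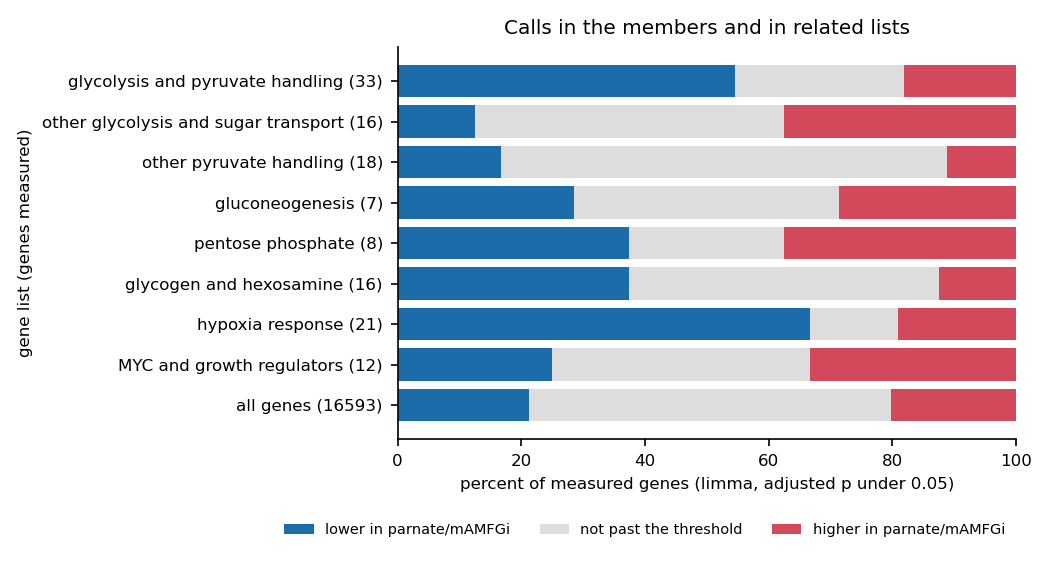
Percent of measured genes that fell (blue), did not pass (grey) or rose (red) in parnate/mAMFGi cells at a limma adjusted p under 0.05, for the glycolysis and pyruvate handling genes, 7 related lists and all genes. Numbers in brackets are genes measured. The blue share is 18 of 33 for the pathway and 14 of 21 for the hypoxia list, against 21.2% of all genes.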

How the data were processed

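Total RNA (500 ng per sample) was labelled with the Illumina TotalPrep kit, per the labels' protocols. The values used were the intensities that the authors processed and deposited, 1 per probe and array. How they were background-corrected and normalized, and with which software, is not given in the sources used here. A further deposited table has 8 columns of values whose names match no label, and they were not used, so no detection call or own background correction of scanner signals was possible.

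Intensities were log2-transformed without a pseudocount, further normalization or filter. Differences between the groups were tested by lmFit and eBayes of limma 3.58.1 (R 4.3.3) over all 25697 probes, with Benjamini-Hochberg adjusted p-values and a threshold of 0.05. Each probe had 2 residual and 11.8 prior degrees of freedom. The number of arrays limits the precision. Symbols came from the platform annotation (23978 probes with 1 symbol, 0 with several, 1719 with none), and those of all 33 measured genes equal the RefSeq symbols of their gene IDs. Promoters came from RefSeq (GRCm38.p6), with entries for 31 of the 33. All 37 genes were to be named, and from the other lists at least the 2 largest changes. The members and lists were chosen with earlier results of these data known. Alternatives covered normalization, background, pseudocount, dim probes, variance model, replicate block, left-out replicates and probe choice. Replicate numbers are shared by the groups, and the main fit did not pair the samples by them. Deviations of same-numbered samples showed little correlation across probes (r = −0.0574), which cannot exclude a pairing. Slide and scan batches are not named in the sources used here and were not tested.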

Additional observations from a re-analysis of the deposited data

How the results depend on the processing

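Of the 24 genes that passed, 18 did so in the same direction under all of the 15 alternatives, and none of these 24 turned its sign. The exceptions were Gapdh, Slc2a1, Pdhb, Pgk1, Pdk2 and Gpd2, given with their values above. With log2(intensity + 50), the median over the 33 genes was −0.24 in place of −0.35, because a pseudocount shrinks differences of dim probes. Leaving out 1 replicate at a time gave 7490 to 9625 probes and 5309 to 6718 genes called, 5 to 8 of the pathway genes higher, 14 to 18 lower and 8 at least 2-fold lower in each case. It also gave a median between −0.40 and −0.33 and 9 or 10 pairs with a shift of at least 1 on the log2 scale. With the replicate number as a block, 9912 probes, 6 higher and 18 lower pathway genes were called, and no call among the 33 changed. Averaging all probes of a gene, dim ones included, shrank the log2 fold changes of Pfkl to −0.92, Pfkp to 0.99, Tpi1 to −1.04, Pfkfb4 to −0.40 and Slc16a3 to 0.23, each still past the threshold. With the pseudocount, Pgam2, Pdk4 and Slc16a3 stood at 0.46, −0.52 and 0.32 and passed. Among genes that did not pass, the sign turned for Hk2 (−0.25 to 0.40 with 1 replicate left out), Pfkfb3 (−0.16 to 0.15) and Pgam1 (−0.0245 to 0.11, and −0.0081 with a common median). Of genes that did not pass, Hk1, Hk2, Pfkfb2 and Pdk3 did so under at least 1 alternative. Intensities near the array medians limit what can be said of the 10 dim genes.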
